A study of Mus musculus with 3 samples.

Results

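Capillary endothelial cells line the smallest blood vessels of the heart, and in droplet-based single-cell RNA sequencing of male C57/B6J mouse hearts they were taken here as barcodes that met 4 conditions. A member had at least 1 unique molecular identifier (UMI, a tag that marks 1 captured mRNA molecule) of at least 3 of 8 capillary marker genes (Btnl9, Mcf2l, Dach1, Nav3, Rgcc, Ablim3, Lnx1 and Ccdc85a) and at least 1 UMI over the endothelial genes Pecam1, Cdh5 and Flt1. It had at most 1 UMI over Gja5, Sema3g, Lhx6, Vegfc, Mmrn1, Reln, Npr3 and Smoc1, which mark arterial, vein-like, lymphatic and endocardial endothelium, and at most 1 UMI over Pdgfra, Csf1r, Muc16 and Abcc9, which mark fibroblasts, macrophages, mesothelium and pericytes. Of 38646 barcodes, 4446 (11.5%) were members.

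The series compared hearts of 2 mouse models of hypertrophic cardiomyopathy, each with a point mutation, with wild-type (WT) hearts. Myh6-R404Q changes cardiac alpha-myosin heavy chain, the motor protein of the heart muscle fibre, and Prkag2-p.R299Q changes the gamma 2 regulatory subunit of AMP-activated protein kinase, the cell's energy sensor. Hearts were digested with collagenase, strained, and sequenced as all cells together. The labels give 1 library for each genotype and no age, number of hearts or zygosity, and a point mutation leaves no mark in gene-level counts, so the genotypes could not be checked from the data. With 1 library per genotype no difference between genotypes can be tested; every interval below is a 95% interval that covers counting error only and not the spread between animals.

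Capillary endothelium of the heart passes fatty acids from the blood to the muscle. Lipoprotein lipase held on the vessel wall by the anchor protein Gpihbp1 frees fatty acids from lipoproteins, the surface protein Cd36 and the carrier Fabp4 take them across, and the transcription factors Tcf15 and Meox2 drive these genes together. The same cells respond to VEGF, apelin, Notch and angiopoietin signals that set vessel growth and stability, and they lay down part of the basement membrane on which they sit.

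The Myh6-R404Q library held 1507 members of 12662 barcodes, the Prkag2-p.R299Q library 716 of 7951 and the WT library 2223 of 18033. Members carried a median of 1489 UMIs in the Myh6-R404Q library, 1776.5 in the Prkag2-p.R299Q library and 1299 in the WT library, and their UMIs summed to 2863811 with Myh6-R404Q, 1665225 with Prkag2-p.R299Q and 3900897 in WT. Summed UMIs were scaled to a total of 1000000 UMIs over the members of a library (CPM), and a sum of 3 UMIs, taken as the floor, equals 1.05 CPM, 1.80 CPM and 0.769 CPM in the Myh6-R404Q, Prkag2-p.R299Q and WT members. Between 28 and 51 barcode sequences occurred in both libraries of a pair, and 1 of them was a member in both Myh6-R404Q and WT. A doublet caller marked 15.1% of Myh6-R404Q members, 13.3% of Prkag2-p.R299Q members and 20.8% of WT members as doublets.

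The rule sets no limit on heart muscle RNA, and every library's members carried it. Myh6 itself, a gene of cardiomyocytes, measured 7106 CPM in Myh6-R404Q members, 7654 CPM in Prkag2-p.R299Q members and 7201 CPM in WT members. All 15 sarcomere genes of a muscle list had UMIs in the members of all libraries, and they summed to 27260 CPM in Myh6-R404Q members, 27930 CPM in Prkag2-p.R299Q members and 31540 CPM in WT members. By single cell the libraries differed more: the median member had 1.33% of its UMIs in these genes with Myh6-R404Q, 0.965% with Prkag2-p.R299Q and 1.94% in WT. Members with over 5% of their UMIs in these genes made up 10.4% in the Myh6-R404Q library, 12.4% in the Prkag2-p.R299Q library and 12.7% in the WT library. Other classes left smaller sums. Fibroblast markers summed to 1380, 1280 and 1162 CPM, macrophage markers to 441, 680 and 671 CPM and pericyte markers to 235, 271 and 367 CPM in Myh6-R404Q, Prkag2-p.R299Q and WT members. Mesothelial markers summed to 245, 151 and 127 CPM in the same order, and no gene of these lists was at 0. The rule limited Abcc9, a gene of the pericyte list, to 1 UMI per member, so that part of the sum was set by the rule. Red blood cell genes summed to 305 CPM in Myh6-R404Q members and 342 CPM in Prkag2-p.R299Q members, against 87.4 CPM in WT members. The part of this RNA from other cells in the results below was not tested, except that the counts of called genes, the folds of named genes, the list medians, the shares and the detection of single genes were recomputed between genotypes without the members over 5% sarcomere UMIs.

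Because the markers chose the cells, their levels are a description. Dach1, a transcription factor of coronary vessel growth, measured 2038 CPM in Myh6-R404Q members, 1685 CPM in Prkag2-p.R299Q members and 1647 CPM in WT members. Nav3, a microtubule-binding protein, stood at 1109 CPM in Myh6-R404Q members, 984 CPM in Prkag2-p.R299Q members and 673 CPM in WT members, the marker that varied most between libraries. Ccdc85a had 1371 CPM in Myh6-R404Q members, 1185 CPM in Prkag2-p.R299Q members and 1517 CPM in WT members. The actin-binding protein Ablim3, the nucleotide exchange factor Mcf2l, the ubiquitin ligase Lnx1, the cell cycle regulator Rgcc and the butyrophilin-like protein Btnl9 lay between 259 and 654 CPM in all libraries. Flt1, a decoy receptor for VEGF, was seen in 87.2% of Myh6-R404Q members, 89.3% of Prkag2-p.R299Q members and 89.7% of WT members.

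The threshold of 3 markers divides a continuum rather than separate groups. Just inside it, 342 Myh6-R404Q, 134 Prkag2-p.R299Q and 644 WT members had 3 markers, and just outside it, 262 Myh6-R404Q, 105 Prkag2-p.R299Q and 581 WT barcodes met every other condition with 2 markers. Kdr, the main VEGF receptor, measured 357 CPM inside against 258 CPM outside with Myh6-R404Q, 344 against 141 CPM with Prkag2-p.R299Q and 292 against 185 CPM in WT. Vwf, the clotting protein of larger vessels, ran the other way, with 73.1 CPM inside against 173 CPM outside with Myh6-R404Q, 29.0 against 105 CPM with Prkag2-p.R299Q and 51.4 against 112 CPM in WT. Cd36 moved less, with 1878 CPM inside against 1497 CPM outside with Myh6-R404Q, 1350 against 1326 CPM with Prkag2-p.R299Q and 1852 against 1532 CPM in WT.

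**Figure D1:**
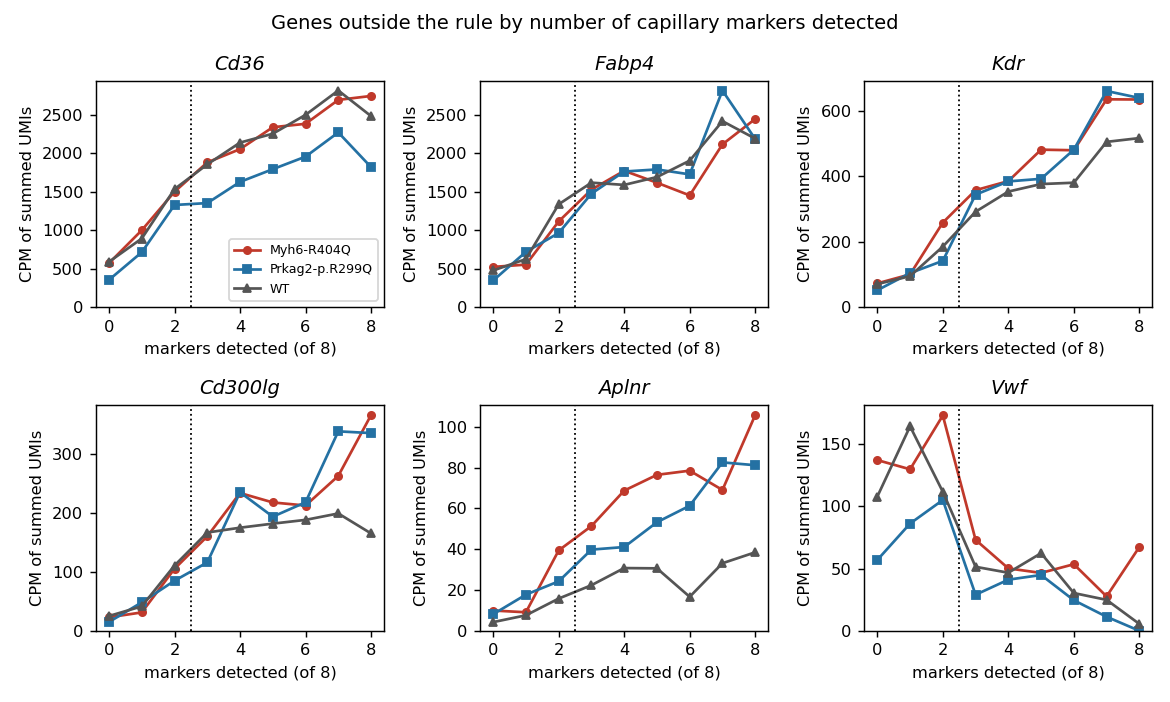
Level in CPM of 6 genes outside the rule (Cd36, Fabp4, Kdr, Cd300lg, Aplnr and Vwf) against the number of the 8 markers detected, in barcodes that met the other conditions, with 1 line per library and the threshold as a dotted line between 2 and 3 markers. Kdr is higher with 3 markers than with 2 in every library (357 against 258 CPM with Myh6-R404Q), while Vwf is lower (73.1 against 173 CPM with Myh6-R404Q).

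Genes outside the rule were read next, to check the label. Members were set against the equal-weight mean of arterial, vein-like, lymphatic and endocardial endothelial barcodes of the same library, each defined by at least 2 UMIs of its own pair of the excluded genes. The arterial class was small, with 13 barcodes with Myh6-R404Q, 8 with Prkag2-p.R299Q and 36 in WT, and the other classes held between 191 and 595 barcodes. All 11 capillary genes that the rule did not use were above the mean of the other classes in all 3 libraries, where 1811 of 7813 genes (23.2%) were above and 1767 (22.6%) below. Here and in the next paragraphs, above or below the other classes refers to this mean and not to each class. For example, Aplnr measured 74.1, 88.3 and 34.2 CPM in vein-like barcodes of Myh6-R404Q, Prkag2-p.R299Q and WT, against 70.9, 56.5 and 26.9 CPM in capillary cells. The median log2 ratio of these 11 genes was 1.11 with Myh6-R404Q, 0.78 with Prkag2-p.R299Q and 1.18 in WT. Since the cells were chosen by expression, these ratios describe them and are no test.

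Fatty acid transport genes were among those above, with list medians of 0.59 with Myh6-R404Q, 0.78 with Prkag2-p.R299Q and 0.59 in WT. Cd36 measured 2245 CPM in capillary cells against 1038 CPM in the other classes with Myh6-R404Q, 1793 against 907.5 CPM with Prkag2-p.R299Q and 2216 against 956 CPM in WT. Gpihbp1 measured 158 against 79.1 CPM with Myh6-R404Q, 154 against 99.9 CPM with Prkag2-p.R299Q and 134 against 63.2 CPM in WT. Of 19 measured genes of fatty acid uptake, 13 were above the other classes in all libraries and 0 below, among them Fabp4, Lpl, Tcf15, the lipid-activated transcription factor Pparg and the lipoprotein receptor Scarb1. Scarb1 differed most of these, with 92.9 against 24.7 CPM with Myh6-R404Q, 104 against 47.1 CPM with Prkag2-p.R299Q and 76.1 against 28.2 CPM in WT. Kdr and Cd300lg, a capillary mucin receptor, were also above 1.5-fold in every library.

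Genes of the other vessel types were lower, as were clotting and TGF-beta genes. Of 8 arterial genes outside the rule 0 were above and 6 below in all libraries, and all 2 vein, 5 lymphatic and 3 endocardial genes were below. Vwf measured 52.4 CPM in capillary cells against 363 CPM in the other classes with Myh6-R404Q, 29.4 against 267 CPM with Prkag2-p.R299Q and 45.4 against 326 CPM in WT. Of 9 clotting and fibrinolysis genes 0 were above and 8 below. Of 20 TGF-beta and BMP genes 1 was above and 12 below, with Smad6, an inhibitor of BMP signals, at 53.8 against 297 CPM with Myh6-R404Q, 51.0 against 308 CPM with Prkag2-p.R299Q and 72.3 against 303 CPM in WT. Basement membrane genes divided by chain: Col4a1, Col4a2, the proteoglycan Hspg2 and the laminin receptor Itga6 were above the other classes in all libraries, and Col4a3, Lama3 and Col18a1 were below. Without the small arterial class, an alternative chosen after seeing the data, 11 of 11 capillary genes and 14 of 19 fatty acid uptake genes were above, and 2 arterial genes were above with 5 below, where 2168 of 7822 genes (27.7%) were above and 2541 (32.5%) below.

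Among genes outside every rule condition, Slc1a1, a glutamate transporter, had the highest ratio. It measured 40.9 CPM in capillary cells against 1.77 CPM in the other classes with Myh6-R404Q, 68.5 against 4.04 CPM with Prkag2-p.R299Q and 48.5 against 3.74 CPM in WT, log2 ratios of 3.92, 3.79 and 3.38. Papln, a matrix protein, followed with log2 ratios of 2.55 with Myh6-R404Q, 2.71 with Prkag2-p.R299Q and 2.72 in WT. St8sia4, which adds polysialic acid to surface proteins, had log2 ratios of 2.32 with Myh6-R404Q, 2.20 with Prkag2-p.R299Q and 1.82 in WT, and the actin nucleator Cobl 2.04 with Myh6-R404Q, 3.33 with Prkag2-p.R299Q and 1.79 in WT. The 15 highest also held the interferon-induced Rsad2, the death receptor Tnfrsf21, the scaffold protein Dlg2, the PI3-kinase subunit Pik3r6, Dcbld1, Kctd12b, Vwa3a, Prag1, Fam78b and the kinase Sgk1. Rapgef4os1, an antisense transcript at Rapgef4, was among them too, and its reads cannot be told from those of its partner, since strand use is not given in the sources used here.

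**Figure D2:**
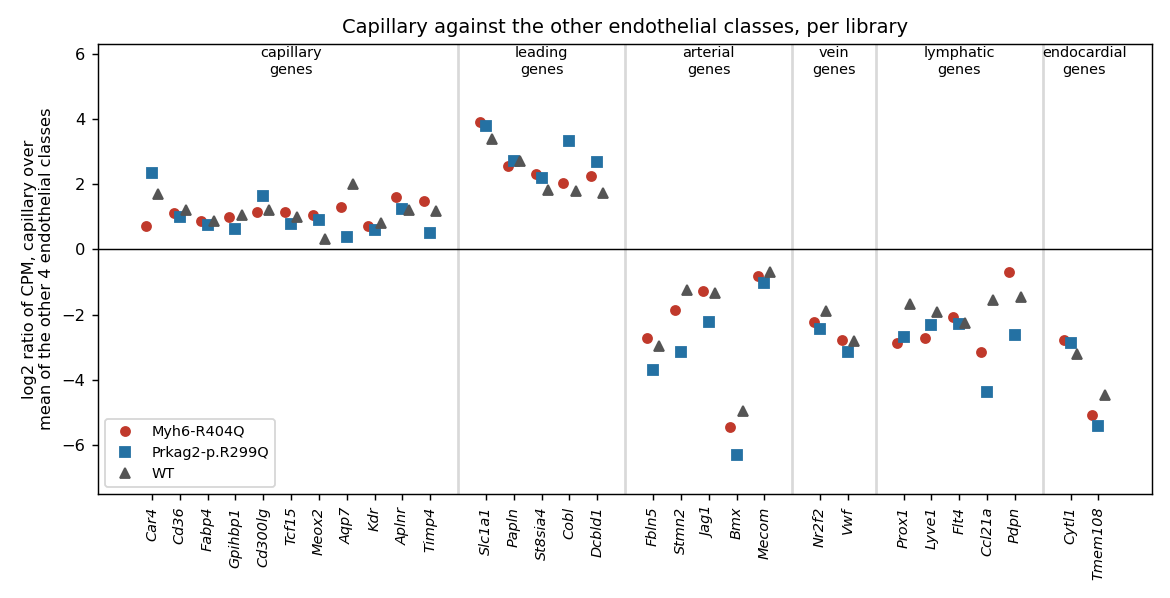
Log2 ratio of CPM in capillary cells over the mean of arterial, vein-like, lymphatic and endocardial endothelial barcodes of the same library, for genes outside the rule, with 1 point per library. The fatty acid genes lie above 0 in every library (Cd36 2245 against 1038 CPM with Myh6-R404Q), and Vwf and the lymphatic and endocardial genes lie below it.

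Capillary cells made up 11.9% of barcodes in the Myh6-R404Q library (exact Clopper-Pearson interval 11.3 to 12.5), 9.01% in the Prkag2-p.R299Q library (8.38 to 9.66) and 12.3% in the WT library (11.9 to 12.8). The Prkag2-p.R299Q library had the lowest share and the other two were close. The share with Myh6-R404Q was 0.965 times that in WT (0.908 to 1.03), and the share with Prkag2-p.R299Q was 0.730 times that in WT (0.674 to 0.791) and 0.757 times that with Myh6-R404Q (0.695 to 0.823). Of endothelial barcodes alone the order changed, with 37.5% capillary with Myh6-R404Q, 36.1% with Prkag2-p.R299Q and 32.7% in WT. Among all barcodes, median depth was 2043 UMIs with Myh6-R404Q, 2537 with Prkag2-p.R299Q and 1559 in WT. Its part in the shares was not tested beyond thinning to 1000 UMIs, which left out barcodes with fewer UMIs. This kept 11068 Myh6-R404Q, 7101 Prkag2-p.R299Q and 13793 WT barcodes. Of these, 9.37% were capillary with Myh6-R404Q, 7.75% with Prkag2-p.R299Q and 9.55% in WT.

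The genotypes were then compared within capillary cells over 7683 genes with a mean of at least 20 CPM. A gene counts as higher or lower where it differed at least 1.5-fold with an interval that leaves out 1. By this rule 312 genes (4.06%) were higher and 382 (4.97%) lower with Myh6-R404Q than in WT, and 259 (3.37%) were higher and 276 (3.59%) lower with Prkag2-p.R299Q than in WT. Between the mutants, 175 genes (2.28%) were higher and 174 (2.26%) lower with Prkag2-p.R299Q than with Myh6-R404Q. These percentages are the background for every list below, and the median log2 ratio over all genes was 0.06 for Myh6-R404Q over WT, 0.03 for Prkag2-p.R299Q over WT and -0.02 for Prkag2-p.R299Q over Myh6-R404Q. With median-of-ratios scaling in place of the total, 238 were higher and 451 lower with Myh6-R404Q than in WT, and 212 were higher and 332 lower with Prkag2-p.R299Q than in WT. Both mutants were set against the same WT library, so genes that differ from WT in both may rest on that library.

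The apelin receptor Aplnr (chromosome 2, 85136225 to 85139923, plus strand, GRCm38/mm10, GENCODE vM21), which is on the capillary list and responds to the peptide apelin, had the highest fold of the genes named by size with Myh6-R404Q. It measured 70.9 CPM with Myh6-R404Q and 56.5 CPM in Prkag2-p.R299Q capillary cells, against 26.9 CPM in WT. Both mutants were above WT, 2.63-fold with Myh6-R404Q (2.07 to 3.37) and 2.10-fold with Prkag2-p.R299Q (1.57 to 2.80). It was also higher in the other endothelial classes, 1.74-fold with Myh6-R404Q and 2.02-fold with Prkag2-p.R299Q. Over the alternative settings the fold ran between 2.24 and 2.66 with Myh6-R404Q and between 1.58 and 2.11 with Prkag2-p.R299Q. Of 11 capillary genes outside the rule, Aplnr alone was called in either mutant against WT. In each library vein-like barcodes measured more Aplnr than capillary cells, as given above.

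Counted by cell, 178 of 1507 Myh6-R404Q members (11.8%, interval 10.2 to 13.6) and 78 of 716 Prkag2-p.R299Q members (10.9%, 8.71 to 13.4) held an Aplnr UMI, against 100 of 2223 WT members (4.50%, 3.68 to 5.44). Fibroblast barcodes, which should lack the gene, showed it in 1.77% with Myh6-R404Q, 1.28% with Prkag2-p.R299Q and 1.06% in WT at a higher median depth of 2250, 2913.5 and 2019 UMIs. Members with at least 1000 UMIs, 1200 with Myh6-R404Q, 628 with Prkag2-p.R299Q and 1556 in WT, were thinned to 1000 UMIs. The 307, 88 and 667 members with fewer UMIs were left out of this setting. The Aplnr shares were then 7.67% with Myh6-R404Q, 4.94% with Prkag2-p.R299Q and 3.34% in WT, so the excess with Prkag2-p.R299Q shrank at equal depth. Apln, the gene of the ligand apelin, which marks sprouting tip cells, was rare: 23 Myh6-R404Q members (1.53%) and 9 Prkag2-p.R299Q members (1.26%) had a UMI, against 5 WT members (0.225%). Fibroblasts showed Apln in 0.161% with Myh6-R404Q, 0.183% with Prkag2-p.R299Q and 0.423% in WT, so the WT share in capillary cells is at background. Thinned to 1000 UMIs, Apln was seen in 5 Myh6-R404Q members (0.417%) and 6 Prkag2-p.R299Q members (0.955%), against 2 WT members (0.129%). In all, 2 Myh6-R404Q, 2 Prkag2-p.R299Q and 0 WT members held both Aplnr and Apln.

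Single genes of angiogenic and guidance signalling were above WT beside Aplnr. Nrp2, a co-receptor for VEGF and semaphorins, measured 604 CPM with Myh6-R404Q and 616 CPM with Prkag2-p.R299Q, against 348 CPM in WT, 1.74-fold (1.61 to 1.86) and 1.77-fold (1.63 to 1.92). Robo2, a Slit receptor, measured 336 CPM with Myh6-R404Q and 242 CPM with Prkag2-p.R299Q, against 158 CPM in WT, 2.12-fold (1.92 to 2.35) and 1.53-fold (1.35 to 1.74). Ephb1, an ephrin receptor, measured 162 CPM with Myh6-R404Q and 185 CPM with Prkag2-p.R299Q, against 74.1 CPM in WT, 2.19-fold (1.89 to 2.55) and 2.497-fold (2.12 to 2.94). All of these genes were highest in a mutant library and lowest in WT. In the other endothelial classes the folds were smaller, 1.03 with Myh6-R404Q and 1.22 with Prkag2-p.R299Q for Nrp2 and 1.24 and 1.34 for Ephb1. For Robo2 the fold there was 1.27 with Myh6-R404Q. In fibroblast barcodes the Ephb1 fold was 3.34 with Myh6-R404Q, above that of capillary cells, and 0.50 with Prkag2-p.R299Q. The difference between the classes was not tested. Plxnd1, a semaphorin receptor, was 1.64-fold higher with Myh6-R404Q and 1.53-fold with Prkag2-p.R299Q, but came to 1.48 and 1.36 at its lowest over the alternatives.

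The lists around these genes moved little as wholes. Of 20 semaphorin, plexin and Robo pathway genes, 2 (Plxnd1 and Unc5b) were higher and 1, Slit3, lower with Myh6-R404Q. With Prkag2-p.R299Q 1 (Plxnd1) was higher, and the medians were 0.07 and 0.01. Robo2 and Ephb1 are not among these 20 genes, so their differences do not enter this count, and Nrp2 is counted with the VEGF genes. Of 8 angiopoietin, Tie and apelin genes, Aplnr was higher and Svep1 lower in both mutants, with medians of 0.13 and 0.10. Of 14 VEGF genes, 1 was higher and 1 lower with Myh6-R404Q, and 1 was higher and 3 lower with Prkag2-p.R299Q, with medians of 0.13 and 0.06. The 3 were Vegfa, Vegfb and Vegfc. The list holds genes that chose the cells, Flt1 and Vegfc. Because the rule limited Vegfc to 1 UMI per member, its call describes the members chosen and is no result about them. The gene lower in both was Vegfa, at 111 CPM with Myh6-R404Q and 129 CPM with Prkag2-p.R299Q, against 225 CPM in WT. Its fold of 0.493 with Myh6-R404Q was 0.604 without the members over 5% sarcomere UMIs and 0.305 in members thinned to 1000 UMIs. Vegfa also measured 621 CPM with Myh6-R404Q, 692 CPM with Prkag2-p.R299Q and 941 CPM in WT cardiomyocyte barcodes, which stood above the capillary cells in each library. Kdr measured 457 CPM with Myh6-R404Q, 458 CPM with Prkag2-p.R299Q and 366 CPM in WT, 1.25-fold in both mutants and not called. Of 12 Notch genes, Dll4, the Notch ligand of tip and arterial cells, was called with Myh6-R404Q, at 45.7 CPM, against 27.9 CPM in WT (1.64-fold, 1.26 to 2.13), and 0 were called with Prkag2-p.R299Q, where Dll4 measured 32.4 CPM. Tek, the angiopoietin receptor, measured 329 CPM with Myh6-R404Q, 315 CPM with Prkag2-p.R299Q and 328 CPM in WT.

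A short list of sprouting genes was higher with Myh6-R404Q. Of 12 listed genes 5 passed the floor of 20 CPM, and 4 of these 5 were higher with Myh6-R404Q with a median of 0.69, while 0 were called with Prkag2-p.R299Q with a median of 0.35. The netrin receptor Unc5b measured 66.3 CPM with Myh6-R404Q and 42.6 CPM with Prkag2-p.R299Q, against 39.7 CPM in WT. Trp53i11 measured 114 CPM with Myh6-R404Q and 69.1 CPM with Prkag2-p.R299Q, against 53.8 CPM in WT, 2.12-fold (1.78 to 2.54) and 1.28-fold. Both stood highest with Myh6-R404Q and were lower with Prkag2-p.R299Q than with Myh6-R404Q, although Unc5b (0.643) and Trp53i11 (0.605) crossed the 1.5-fold limit under some alternatives. Nid2, a basement membrane linker, was 1.61-fold higher with Myh6-R404Q and 1.43-fold at its lowest. Esm1, a tip cell gene, did not pass the floor, at 1.05 CPM with Myh6-R404Q, 6.0 CPM with Prkag2-p.R299Q and 1.28 CPM in WT.

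UMIs of dividing cells were rare and, over all members, more frequent in the mutants. Over 24 cell cycle genes, of which 1 passed the floor, members summed to 247 CPM with Myh6-R404Q and 149 CPM with Prkag2-p.R299Q, against 88.2 CPM in WT, 2.80-fold (2.46 to 3.198) and 1.69-fold (1.43 to 1.99). These intervals treat UMIs as independent and do not cover their clustering in few cells. With Myh6-R404Q 384 of 708 such UMIs came from 33 cells, with Prkag2-p.R299Q 86 of 248 from 13 cells and in WT 41 of 344 from 10 cells. Cells with at least 3 such UMIs numbered 33 with Myh6-R404Q (2.19%, 1.51 to 3.06) and 13 with Prkag2-p.R299Q (1.82%, 0.970 to 3.09), against 10 among WT members (0.450%, 0.216 to 0.826). Fibroblasts had 0.963% with Myh6-R404Q and 1.47% with Prkag2-p.R299Q, against 0 in WT. The DNA topoisomerase Top2a was seen in 29 Myh6-R404Q members (1.92%) and 8 Prkag2-p.R299Q members (1.12%), against 4 WT members (0.180%), and the proliferation marker Mki67 in 22 (1.46%) and 9 (1.26%), against 3 (0.135%). Thinned to 1000 UMIs, at least 3 cell cycle UMIs were seen in 17 Myh6-R404Q members (1.42%, 0.827 to 2.26). They were seen in 4 Prkag2-p.R299Q members (0.637%, 0.174 to 1.62) and 2 WT members (0.129%, 0.0156 to 0.4635), whose intervals overlap. At that depth Top2a was in 1.75% of members with Myh6-R404Q, in 0.637% of those with Prkag2-p.R299Q and in 0 of 1556 WT members, which by the floor of 3 counts allows a share of up to 0.193%, and by the exact interval up to 0.237%. Leaving out called doublets gave 26 cells of 1280 (2.03%) with Myh6-R404Q and 9 of 621 (1.45%) with Prkag2-p.R299Q, against 4 of 1760 (0.227%) in WT.

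**Figure D3:**
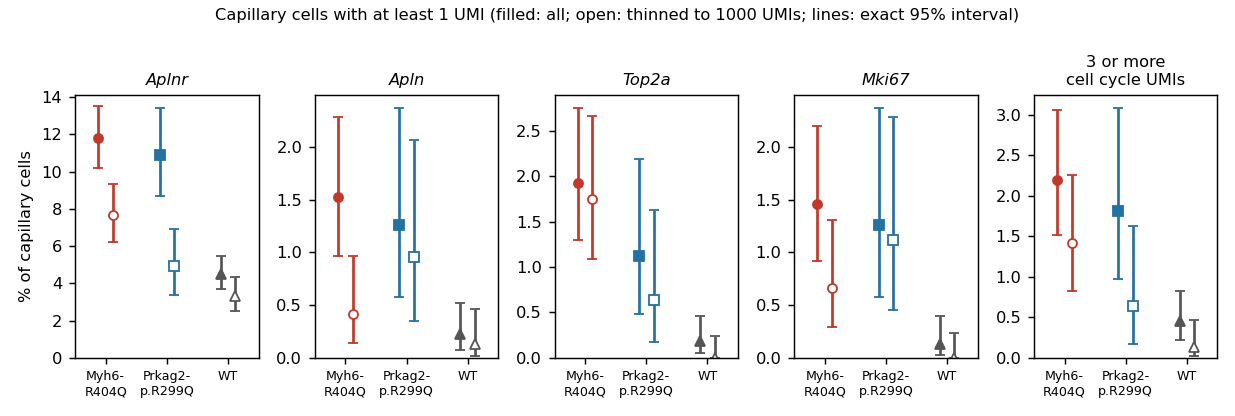
Share of capillary cells with a UMI of Aplnr, Apln, Top2a and Mki67 and with at least 3 cell cycle UMIs, by library, in percent, with exact 95% binomial intervals. Filled points show all members and open points the members with at least 1000 UMIs, thinned to 1000 UMIs. Aplnr is seen in 11.8% of members with Myh6-R404Q and in 10.9% with Prkag2-p.R299Q, against 4.50% of WT members, and the gap between Prkag2-p.R299Q and WT is smaller among thinned members.

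Single junction genes were also higher. Jam3, an adhesion molecule of endothelial junctions, measured 172 CPM with Myh6-R404Q and 174 CPM with Prkag2-p.R299Q, against 93.1 CPM in WT, 1.85-fold (1.62 to 2.13) and 1.87-fold (1.60 to 2.19), while in the other endothelial classes its folds were 0.902 and 0.928. Cldn5, the tight junction claudin of endothelium (chromosome 16, 18776847 to 18778262, plus strand), measured 103 CPM with Myh6-R404Q and 43.8 CPM with Prkag2-p.R299Q, against 49.7 CPM in WT. A Cldn5 UMI was present in 240 Myh6-R404Q and 60 Prkag2-p.R299Q members, against 169 WT members, with at most 4 in 1 cell. Cldn5 was thus high in 1 mutant: 2.07-fold over WT with Myh6-R404Q (1.72 to 2.496), 0.881-fold with Prkag2-p.R299Q, and 0.426-fold with Prkag2-p.R299Q over Myh6-R404Q (0.325 to 0.552), where it was the sole gene past the 2-fold naming rule on the lower side. Of 18 junction genes, 2 were higher with Myh6-R404Q and 1 with Prkag2-p.R299Q, 0 were lower in either, and the medians were 0.25 and 0.07. The list includes genes of the rule, none of which was called.

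Of 20 basement membrane genes, 3 were higher and 0 lower with Myh6-R404Q and 1 was higher and 1 lower with Prkag2-p.R299Q, to be read against the backgrounds of 4.06% and 3.37% higher, while the medians of 0.24 and 0.30 stood above the 0.06 and 0.03 of all genes. Most members shifted by less than the 1.5-fold limit. Col4a1 measured 648 CPM with Myh6-R404Q and 715 CPM with Prkag2-p.R299Q, against 531 CPM in WT, and its partner chain Col4a2 557 and 623 CPM, against 438 CPM in WT. Outside the list, Pxdn, the peroxidase that cross-links collagen IV, measured 145 CPM with Myh6-R404Q and 112 CPM with Prkag2-p.R299Q, against 63.3 CPM in WT, 2.29-fold (1.96 to 2.70) and 1.76-fold (1.45 to 2.14). Col4a3 measured 32.1 CPM with Myh6-R404Q and 32.4 CPM with Prkag2-p.R299Q, against 15.9 CPM in WT, but without called doublets its fold with Prkag2-p.R299Q was 1.38. Summed over the list, UMIs were 1.18-fold those of WT with Myh6-R404Q and 1.22-fold with Prkag2-p.R299Q, against 0.963-fold and 1.02-fold in the other endothelial classes, a difference that was not tested.

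Signalling and transcription factor genes gave single calls. Smad1, which carries BMP signals to the nucleus, measured 250 CPM with Myh6-R404Q and 190 CPM with Prkag2-p.R299Q, against 146 CPM in WT, 1.71-fold (1.53 to 1.91) and 1.30-fold. Tgfb1 measured 56.2 CPM with Myh6-R404Q and 62.5 CPM with Prkag2-p.R299Q, against 35.1 CPM in WT, 1.60-fold and 1.78-fold, with a lowest value of 1.47 with Myh6-R404Q. Bmpr1a, a BMP receptor, was lower, at 88.3 CPM with Myh6-R404Q and 78.1 CPM with Prkag2-p.R299Q, against 146 CPM in WT, and its fold of 0.605 with Myh6-R404Q came to 0.692 at the highest over the alternatives. Of 27 endothelial transcription factors, 2 were higher and 0 lower in each mutant. Sox7 measured 76.8 CPM with Myh6-R404Q and 76.3 CPM with Prkag2-p.R299Q, against 41.3 CPM in WT, 1.86-fold and 1.85-fold. Bcl6b measured 145 CPM with Myh6-R404Q and 103 CPM with Prkag2-p.R299Q, against 70.2 CPM in WT, and was called with Myh6-R404Q. Plat, the tissue plasminogen activator that endothelium releases to dissolve clots, measured 34.9 CPM with Myh6-R404Q and 24.02 CPM with Prkag2-p.R299Q, against 16.1 CPM in WT, 2.16-fold with Myh6-R404Q.

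**Figure D4:**
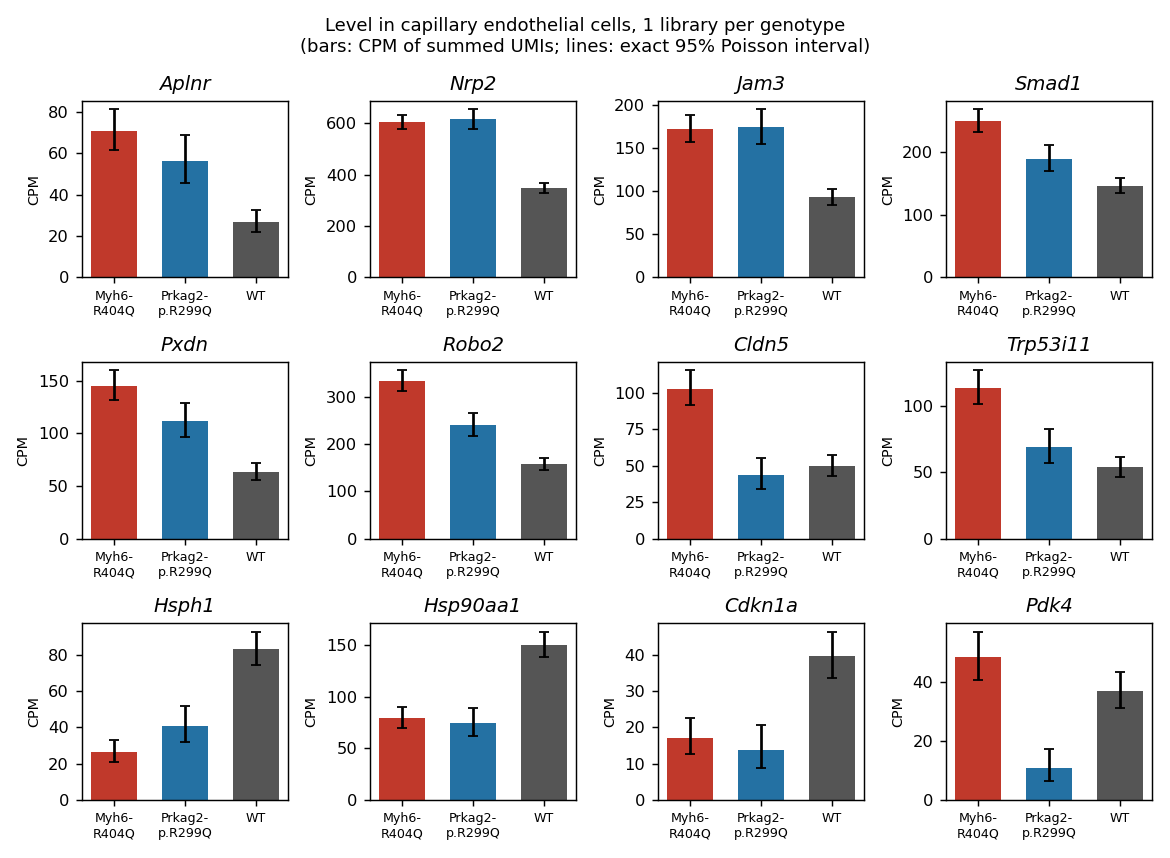
Level in CPM, summed over capillary cells, of 12 genes in the Myh6-R404Q, Prkag2-p.R299Q and WT libraries, with exact 95% Poisson intervals of the counts. Aplnr, Nrp2, Jam3 and Pxdn stand higher in both mutants than in WT, Cldn5 and Trp53i11 stand higher with Myh6-R404Q, and Hsph1, Hsp90aa1 and Cdkn1a stand lower in both mutants.

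Heat shock genes, which encode protein-folding chaperones induced by stress, stood lower in both mutants. Of 15 measured genes, 7 were lower and 0 higher with Myh6-R404Q, and 7 were lower and 0 higher with Prkag2-p.R299Q, with a median log2 ratio of -0.55 in each. Hsp90aa1, the inducible HSP90 chaperone, measured 79.3 CPM with Myh6-R404Q and 74.5 CPM with Prkag2-p.R299Q, against 150 CPM in WT, 0.527-fold (0.450 to 0.615) and 0.495-fold (0.404 to 0.602). Hsph1, the exchange factor of HSP70, measured 26.2 CPM with Myh6-R404Q and 40.8 CPM with Prkag2-p.R299Q, against 83.3 CPM in WT, 0.314-fold (0.241 to 0.405) and 0.490-fold (0.372 to 0.638). Both genes were highest in WT. The co-chaperones Stip1, Chordc1 and Dnajb4 were lower in both as well, with Stip1 at 34.9 CPM with Myh6-R404Q and 41.4 CPM with Prkag2-p.R299Q, against 71.3 CPM in WT. Chordc1 and Hspe1 with Myh6-R404Q and Chordc1, Dnajb4 and Hspa8 with Prkag2-p.R299Q came inside the 1.5-fold limit under at least 1 alternative, with values up to 0.700. Over the alternatives the list's median ran between -0.66 and -0.51 with Myh6-R404Q and between -0.64 and -0.45 with Prkag2-p.R299Q. The list was lower outside capillaries too: its summed UMIs were 0.736-fold those of WT with Myh6-R404Q and 0.753-fold in Prkag2-p.R299Q capillary cells, and 0.746-fold and 0.731-fold in the other endothelial classes. The difference between the classes was not tested.

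Single genes of metal, glucocorticoid and hypoxia responses were lower too. Of 6 metallothionein and acute phase genes 4 were lower with Myh6-R404Q and 1 with Prkag2-p.R299Q, with medians of -0.67 and -0.37. Mt1, a metallothionein induced by metals and glucocorticoids, measured 59.7 CPM with Myh6-R404Q and 69.7 CPM with Prkag2-p.R299Q, against 124 CPM in WT, and its fold of 0.560 with Prkag2-p.R299Q came to 0.702 at the highest. Cdkn1a, the inhibitor of cell division p21, measured 17.1 CPM with Myh6-R404Q and 13.8 CPM with Prkag2-p.R299Q, against 39.7 CPM in WT, 0.431-fold and 0.348-fold. Of 14 glucocorticoid-responsive genes, 4 were lower with Myh6-R404Q and 2 with Prkag2-p.R299Q, with 0 higher in either and medians of -0.31 and -0.26, the second as small as -0.07 under the alternatives. Cdkn1a was called in both, and the other members differed. Zbtb16, a transcriptional repressor, measured 408 CPM with Myh6-R404Q and 629 CPM with Prkag2-p.R299Q, against 740 CPM in WT, and Fkbp5, the glucocorticoid receptor co-chaperone, 126 CPM with Myh6-R404Q and 249 CPM with Prkag2-p.R299Q, against 191 CPM in WT. Fkbp5 was 0.659-fold WT with Myh6-R404Q and came to 0.694 at the highest. Pdk4, the kinase that turns metabolism from glucose to fat, was lowest with Prkag2-p.R299Q: 48.2 CPM with Myh6-R404Q and 10.8 CPM with Prkag2-p.R299Q, against 36.7 CPM in WT, 0.295-fold over WT (0.170 to 0.483) and 0.224-fold over Myh6-R404Q. Of 13 hypoxia genes, 3 were lower and 0 higher in each mutant, Vegfa and the collagen hydroxylase P4ha2 in both, with medians of -0.10 and -0.15. In members thinned to 1000 UMIs the hypoxia median with Myh6-R404Q was 0.01.

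**Figure D5:**
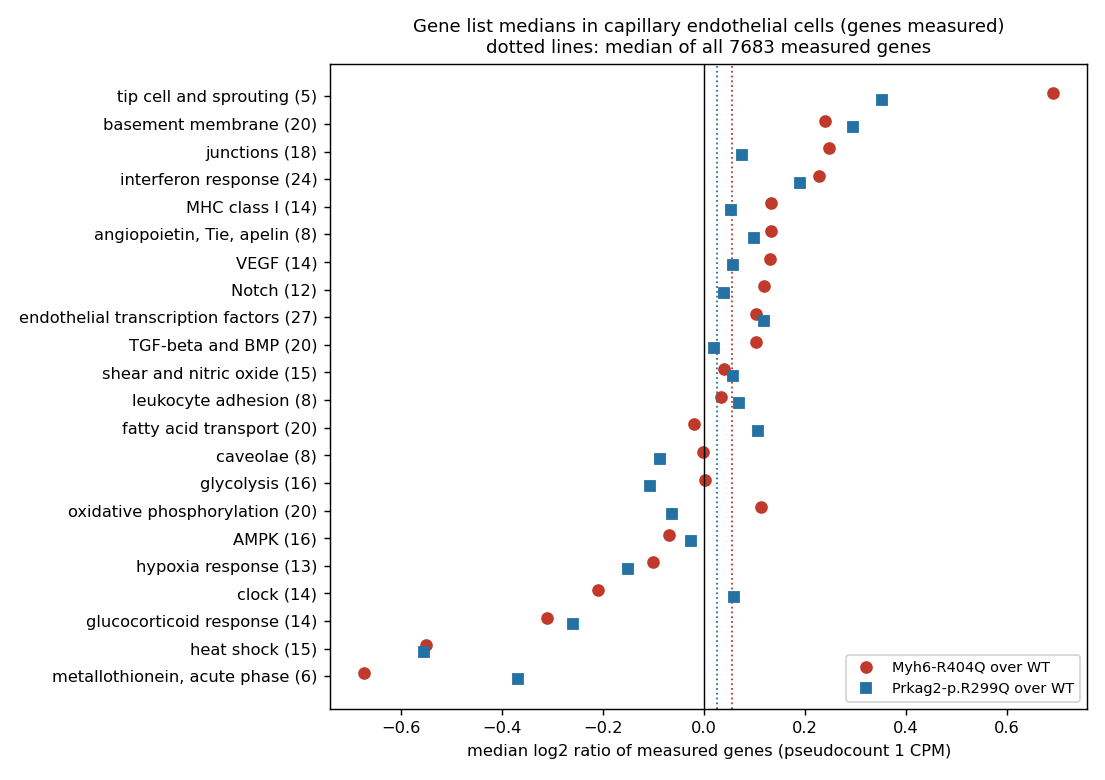
Median log2 ratio of the measured genes of 22 lists in capillary cells, for Myh6-R404Q over WT and Prkag2-p.R299Q over WT, with dotted lines at the medians of all genes (0.06 and 0.03). The sprouting list has a median of 0.69 with Myh6-R404Q and 0.35 with Prkag2-p.R299Q, heat shock genes lie at -0.55 in both, and the fatty acid transport list lies near 0.

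Few fatty acid transport genes were called between genotypes. Of 20 fatty acid transport genes 0 were called with Myh6-R404Q and 1, the lipoprotein receptor Vldlr, was lower with Prkag2-p.R299Q, with medians of -0.02 and 0.11. Cd36 was 1.01-fold WT with Myh6-R404Q and 0.809-fold with Prkag2-p.R299Q, and Fabp4 measured 1683 CPM with Myh6-R404Q, 1904 CPM with Prkag2-p.R299Q and 1750 CPM in WT. Lipoprotein lipase, Lpl, measured 908 CPM with Myh6-R404Q, 844 CPM with Prkag2-p.R299Q and 1135 CPM in WT. Some of the 15 genes with the highest ratio over other endothelium did differ. Dlg2 measured 723.5 CPM with Myh6-R404Q and 657.6 CPM with Prkag2-p.R299Q, against 386.8 CPM in WT, 1.87-fold and 1.70-fold, with a lowest value of 1.47 with Prkag2-p.R299Q. Papln measured 58.7 CPM with Myh6-R404Q and 67.3 CPM with Prkag2-p.R299Q, against 36.2 CPM in WT, 1.62-fold and 1.86-fold, with a lowest value of 1.36 with Myh6-R404Q. Tnfrsf21 was 1.86-fold WT with Myh6-R404Q, and Cobl 1.79-fold WT with Prkag2-p.R299Q. Caveolin Cav1 measured 771 CPM with Myh6-R404Q, 784 CPM with Prkag2-p.R299Q and 610 CPM in WT, and of 8 leukocyte adhesion genes 0 were called. The flow-induced factor Klf2 measured 161 CPM with Myh6-R404Q, 174 CPM with Prkag2-p.R299Q and 157 CPM in WT, and the nitric oxide synthase Nos3 112, 88.3 and 77.7 CPM in Myh6-R404Q, Prkag2-p.R299Q and WT.

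Genes of fatty acid oxidation and oxidative phosphorylation gave few calls, and their medians moved when sarcomere-rich members were left out. Of 18 fatty acid oxidation genes 0 were called with Myh6-R404Q and 1, the carnitine transferase Cpt1b, was lower with Prkag2-p.R299Q, with medians of 0.15 and -0.14. Of 20 genes of oxidative phosphorylation 0 were called in either, with medians of 0.11 and -0.06. Without the members over 5% sarcomere UMIs the medians of fatty acid oxidation were -0.10 with Myh6-R404Q and -0.48 with Prkag2-p.R299Q, and those of oxidative phosphorylation -0.05 and -0.39. In the same setting the medians of the sarcomere list itself were -0.29 with Myh6-R404Q and -0.63 with Prkag2-p.R299Q. Summed UMIs of fatty acid oxidation were 0.893-fold WT in Prkag2-p.R299Q capillary cells and 0.725-fold in the other endothelial classes, and those of oxidative phosphorylation 0.978-fold and 0.788-fold, a difference that was not tested. Summed sarcomere UMIs were 0.885-fold WT in Prkag2-p.R299Q capillary cells and 0.664-fold in the other endothelial classes. The part of muscle RNA in these values was not tested.

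Prkag2, the gene mutated in 1 model, measured 73.7 CPM with Myh6-R404Q, 75.1 CPM with Prkag2-p.R299Q and 83.8 CPM in WT capillary cells. Its paralogue Prkag1 stood at 71.9, 61.9 and 62.8 CPM in Myh6-R404Q, Prkag2-p.R299Q and WT. The catalytic subunits Prkaa1 and Prkaa2 were not called in either mutant. The beta subunit Prkab2 was lower in both, at 24.8 CPM with Myh6-R404Q and 24.6 CPM with Prkag2-p.R299Q, against 39.2 CPM in WT, but its folds of 0.632 and 0.628 came to 0.711 and 0.843 at the highest over the alternatives.

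Few interferon-induced genes were called. Of 24 measured, 3 were higher and 0 lower with Myh6-R404Q, and 2 were higher and 0 lower with Prkag2-p.R299Q, with medians of 0.23 and 0.19, the second 0.06 in members thinned to 1000 UMIs. Rsad2, the antiviral protein viperin and 1 of the genes that set capillary cells apart above, measured 82.4 CPM with Myh6-R404Q and 63.7 CPM with Prkag2-p.R299Q, against 45.9 CPM in WT, 1.80-fold with Myh6-R404Q. The transcription factor Irf1 measured 81.4 CPM with Myh6-R404Q and 72.1 CPM with Prkag2-p.R299Q, against 52.8 CPM in WT, and its 1.54-fold with Myh6-R404Q came to 1.33 at the lowest, as the 1.60-fold of Xaf1 came to 1.26. In Prkag2-p.R299Q the 2 called were Ifit2 at 36.6 CPM, against 19.2 CPM in WT, and Usp18 at 37.2 CPM, against 22.8 CPM in WT, whose 1.63-fold came to 1.41 at the lowest. Of 14 MHC class I genes 2 were higher with Myh6-R404Q and 1 with Prkag2-p.R299Q.

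By size alone, 15 genes with Myh6-R404Q passed the naming rule on the higher side (at least 2-fold with an interval beyond 1.5-fold, 50 CPM and a level at least 0.2 times that of the highest class of that library) and 50 on the lower side. Besides those above, the higher side held Ift122, a protein of the primary cilium, at 60.1 CPM with Myh6-R404Q and 56.5 CPM with Prkag2-p.R299Q, against 26.4 CPM in WT. It also held Cd247, the zeta chain of the T cell receptor, at 52.7 CPM with Myh6-R404Q and 30.0 CPM with Prkag2-p.R299Q, against 21.5 CPM in WT. The lipid-transporting ATPase Atp8b5 measured 86.2 CPM with Myh6-R404Q and 59.5 CPM with Prkag2-p.R299Q, against 37.4 CPM in WT. In Prkag2-p.R299Q 6 genes passed on the higher side and 15 on the lower, with Rad51b, a DNA repair gene, at 90.1 CPM with Prkag2-p.R299Q, against 42.5 CPM in WT, 2.12-fold and 1.48-fold at the lowest.

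Of the 10 lowest genes named for Myh6-R404Q, 7 measured more in WT cardiomyocyte barcodes (at least 5% sarcomere UMIs and no UMI of the endothelial or other class genes) than in WT capillary cells, as did 9 of the 10 named for Prkag2-p.R299Q. On the higher side this held for 1 of 10 genes with Myh6-R404Q, the muscle gene Myom2, at 239.5 CPM with Myh6-R404Q and 125.5 CPM with Prkag2-p.R299Q, 2.37-fold WT with Myh6-R404Q, and for 1 of 6 with Prkag2-p.R299Q, Nppa. The share of all measured genes with more in cardiomyocyte barcodes than in capillary cells is not given here. These counts therefore have no background and are a description of the named genes. Hsph1, Nkain2 and Csmd1 were the exceptions with Myh6-R404Q, Hsph1 with 50.2 CPM in WT cardiomyocyte barcodes against 83.3 CPM in WT capillary cells, and Hspb6 was the exception with Prkag2-p.R299Q. Nkain2 measured 40.2 CPM with Myh6-R404Q, against 152 CPM in WT, 0.264-fold, and Csmd1 was 0.143-fold WT. Slc8a1, the sodium-calcium exchanger of heart muscle, measured 900.5 CPM with Myh6-R404Q and 1262 CPM in Prkag2-p.R299Q capillary cells, against 2502 CPM in WT, and 4821, 6419 and 10070 CPM in cardiomyocyte barcodes of Myh6-R404Q, Prkag2-p.R299Q and WT. Chrm2, the muscarinic receptor of heart muscle, measured 99.5 CPM with Myh6-R404Q and 178 CPM with Prkag2-p.R299Q, against 330 CPM in WT, and 779, 1085 and 1376 CPM in cardiomyocyte barcodes. Corin, the protease that activates natriuretic peptides, measured 143 CPM with Myh6-R404Q and 106 CPM with Prkag2-p.R299Q, against 244 CPM in WT, and 861, 775.5 and 908.5 CPM in cardiomyocyte barcodes. Nppa, the gene of atrial natriuretic peptide, ran the other way: 17.8 CPM with Myh6-R404Q and 100.9 CPM with Prkag2-p.R299Q, against 26.9 CPM in WT, beside 61.9, 411 and 23.9 CPM in cardiomyocyte barcodes. Its fold with Prkag2-p.R299Q was 3.75, and 2.20 without the members over 5% sarcomere UMIs. Of the other lowest genes with Myh6-R404Q, the endothelin receptor Ednra was 0.323-fold WT, the anoctamin Ano4 0.337-fold, Trabd2b 0.355-fold, the ubiquitin ligase Rnf128 0.362-fold and the protocadherin Pcdh7 0.370-fold. With Prkag2-p.R299Q the others were the kinase Mapk10 at 0.400-fold, Ednra at 0.413-fold, Ppp1r3a, a glycogen-targeting phosphatase subunit, at 0.430-fold, the small heat shock protein Hspb6 at 0.438-fold, Rnf128 at 0.446-fold, the olfactory receptor Olfr1033 at 0.471-fold and the RNA-binding protein Khdrbs3 at 0.474-fold. Ednra and Khdrbs3 came to 0.747 and 0.671 at the highest with Prkag2-p.R299Q. Hectd2os, named as antisense to Hectd2, had 0.373-fold and Rapgef4os1 2.10-fold WT with Prkag2-p.R299Q, both uncertain since strand use is not given. Acta1, skeletal muscle actin, was 2.71-fold higher with Prkag2-p.R299Q than with Myh6-R404Q, at 121 CPM against 44.7 CPM. For these genes the part of muscle RNA was not tested, and they are given as levels in the barcodes.

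Set against each other, the mutants differed in single genes of several lists. Heat shock genes had 1 higher (Hsph1, 1.56-fold, and 1.09 at the lowest over the alternatives) and 0 lower with Prkag2-p.R299Q than with Myh6-R404Q. Glucocorticoid-responsive genes had 3 higher (Fkbp5, Zbtb16 and Errfi1) and 1 lower (Pdk4), although Zbtb16 (1.43) and Errfi1 (1.29) came below 1.5-fold. Of 14 clock genes 2 were higher (Tef, 1.64-fold, and Cry2, 1.56-fold and 1.27 at the lowest) and 1 lower, Arntl, which encodes the clock activator BMAL1, at 24.02 CPM with Prkag2-p.R299Q against 46.1 CPM with Myh6-R404Q. The sprouting list stood lower with Prkag2-p.R299Q, with 2 of 5 genes lower and a median of -0.48, but the median was 0.04 with no floor and both calls were lost under at least 1 alternative. Of 18 fatty acid oxidation genes, Acaa2 (0.650-fold) and Decr1 (0.627-fold) were lower, with a median of -0.26. Of 20 semaphorin, plexin and Robo pathway genes 1 was higher and 3 lower. Of 8 macrophage markers 3 were higher, with a median of 0.44, but at their lowest C1qc came to 1.02, F13a1 to 1.26 and Cd163 to 0.872.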

How the data were processed

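Single-cell suspensions of 1 Myh6-R404Q, 1 Prkag2-p.R299Q and 1 WT heart library were made with a 10x 3′ kit (version 3), per the labels' protocols, and processed with Cell Ranger 7.0.1 against mm10, per the submitters' processing notes. Each deposited matrix holds UMI counts by the authors, over 32285 genes. The sources used here do not give whether intronic or antisense reads entered them. For Myh6-R404Q the file was an aggregate: its 7951 barcodes ending in 1 equalled the Prkag2-p.R299Q matrix and its 18033 ending in 2 the WT matrix, with 0 differing values, so the 12662 ending in 3 were taken as Myh6-R404Q.

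UMI counts of members were summed per library and scaled by their total. Folds carry exact conditional binomial 95% intervals; log2 ratios use a pseudocount of 1 CPM. A gene was called at 1.5-fold with an interval leaving out 1 and a mean of at least 20 CPM. The code was tested on simulated data. Doublets were called with Scrublet in scanpy 1.11.5 within each library, at an expected rate of 0.8% per 1000 barcodes, and kept except in an alternative. Python 3.11.15, numpy 2.4.6, scipy 1.17.1, pandas 2.3.3 and matplotlib 3.10.9 were used. No difference between genotypes was tested.

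Named were the markers of the rule, up to 10 genes per direction and comparison by fold (at least 2-fold, interval beyond 1.5-fold, 50 CPM, and 0.2 of the level in the highest class), 15 genes against other endothelium, the most abundant and called genes of 42 lists, and AMPK subunits. Atp8b5, Cd247, Ift122 and the other genes named beside a list were taken by these rules, while Apln, Esm1, Top2a and Mki67 were chosen as list members below the floor. The members and lists were chosen with earlier results of these data known. Alternatives changed the scaling, the floor, doublets, the number of markers, the excluded UMIs and the depth; leaving out members over 5% sarcomere UMIs, equal weight per member, the mean without the arterial class and detection under other member sets were added after seeing the data. A gene that met the naming rule is not reported here.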

Additional observations from a re-analysis of the deposited data

Results flagged for a closer look

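Csmd1, which encodes a large membrane protein, stood on opposite sides of WT in Prkag2-p.R299Q capillary cells and in the other endothelial classes. The difference was not tested. It was 1.93-fold WT in Prkag2-p.R299Q capillary cells (1.56 to 2.39) and 0.331-fold WT in the other endothelial classes (0.232 to 0.461). These intervals treat UMIs as independent and do not cover their clustering in few cells. With Myh6-R404Q Csmd1 was lower in both, 0.143-fold WT in capillary cells and 0.191-fold in the other endothelial classes. Its 165 UMIs with Prkag2-p.R299Q came from 11 members, with 71 UMIs in 1 cell, and 21 UMIs with Myh6-R404Q came from 12 members, against 200 UMIs from 44 members in WT. The fold of Prkag2-p.R299Q over Myh6-R404Q was 13.5, but 1.26 among members with 0 UMIs of the excluded genes and 37.5 without called doublets.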

How the results depend on the processing

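Limits are set by 1 library per genotype, so nothing here measures the spread between animals. No paired analysis was possible because each genotype has 1 library and no replicate number. Counts of called genes followed the floor. At 50 CPM, 106 were higher and 189 lower with Myh6-R404Q than in WT, 82 and 110 with Prkag2-p.R299Q than in WT, and 48 and 33 with Prkag2-p.R299Q than with Myh6-R404Q; with no floor the counts were 933 and 866, 637 and 574, and 456 and 479. Without members over 5% sarcomere UMIs, 420 were lower with Prkag2-p.R299Q than in WT. Of 60 recomputed gene counts 47 stayed within 1.5 times the main count. The capillary share (Myh6-R404Q, Prkag2-p.R299Q, WT) was 9.37%, 7.75% and 9.55% thinned to 1000 UMIs, 9.20%, 7.32% and 8.76% with at least 4 markers, 14.0%, 10.3% and 15.6% with at least 2 markers, 7.32%, 5.94% and 7.54% with 0 excluded UMIs, and 37.5%, 36.1% and 32.7% of endothelial barcodes. Among barcodes of at least 1000 UMIs it was 10.8% with Myh6-R404Q and 11.3% in WT. The Myh6-R404Q share was below that of WT in the main setting and above it with at least 4 markers, 1.05-fold, and without called doublets, 12.2% against 11.9%, 1.025-fold.

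Of called gene folds 5 values turned direction, and 7 values of list medians at least 0.15 from 0. Of all 111 list medians, 51 changed sign under at least 1 alternative. In Prkag2-p.R299Q over Myh6-R404Q, the sprouting list had a median of 0.0393 with no floor and the arterial list 0.0016 with 0 excluded UMIs, Lyve1 had a fold of 0.767 without doublets and 0.938 with 0 excluded UMIs, Cd163 0.872 with 0 excluded UMIs, and Cdh2 0.952 without members over 5% sarcomere UMIs. In Prkag2-p.R299Q over WT, Vwf had 1.08 with 0 excluded UMIs and the arterial list 0.0939 thinned. In Myh6-R404Q over WT, the median of fatty acid oxidation was -0.10 without members over 5% sarcomere UMIs and -0.0289 with equal weight, and that of clotting -0.0182 thinned and -0.0542 with equal weight. The cause of these was not tested.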

Other observations

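Lymphatic genes outside the rule and pericyte markers, which include the rule's Abcc9, stood lower in capillary cells of both mutants. Of 4 lymphatic genes 3 were lower with Myh6-R404Q and 2 with Prkag2-p.R299Q than in WT, with median log2 ratios of -0.79 and -0.44. Of 4 pericyte genes 3 (Abcc9, Rgs5 and Notch3) and 2 (Abcc9 and Notch3) were lower, with medians of -0.70 and -0.62. Because the rule limited Abcc9 to 1 UMI per member, its call describes the members chosen and is no result about them. The pericyte medians here and below include it. Prox1, the transcription factor of lymphatic identity, measured 37.0 CPM with Myh6-R404Q and 36.0 CPM with Prkag2-p.R299Q, against 59.7 CPM in WT capillary cells, and Lyve1, the lymphatic hyaluronan receptor, 12.9 and 22.2 CPM, against 25.1 CPM. Called doublets were most frequent among WT members (15.1% with Myh6-R404Q, 13.3% with Prkag2-p.R299Q and 20.8% in WT). Without them, with 3 lymphatic genes left past the floor, the lymphatic medians were -0.54 with Myh6-R404Q and -0.29 with Prkag2-p.R299Q, and the pericyte medians -0.77 and -0.65. Svep1, a ligand of the orphan receptor Tie1, was 0.575-fold WT with Myh6-R404Q, and 0.997-fold without called doublets. All 4 hemoglobin genes were higher in both mutants, with median log2 ratios of 2.11 with Myh6-R404Q and 2.22 with Prkag2-p.R299Q. Summed red blood cell genes in all other barcodes were higher too, at 211 CPM with Myh6-R404Q and 200 CPM with Prkag2-p.R299Q, against 66.3 CPM in WT.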
